A study of Mus musculus with 16 samples.

Results

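The genes described here are the extracellular cues and receptors of axon guidance: 66 protein-coding genes of the mouse annotation GENCODE M39, out of 21770 protein-coding genes in all. They were chosen by symbol alone and comprise 20 semaphorins, 9 plexins, 2 neuropilins, 9 EphA and 5 EphB receptors, 5 ephrin-A and 3 ephrin-B ligands, 3 Slits, 4 Robo receptors, and netrin 1 with its 5 receptors Dcc and Unc5a to Unc5d. By role, 32 are ligands and 34 are receptors. The measurement is the set of m6A peaks that fell on their exons in peri-infarct cortex of the mouse.

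These families steer growing axons and later act at synapses, on blood vessels and on glia. Secreted class 3 semaphorins bind neuropilins, and plexins carry the signal into the cell. Other semaphorins stay in the membrane and bind plexins directly. Ephrins are membrane-bound ligands of the Eph receptor tyrosine kinases, Slits are secreted ligands of Robo receptors, and netrin 1 attracts through Dcc and repels through Unc5 receptors. The m6A mark is a methylated adenosine that a nuclear enzyme complex places in mRNA, mostly within the sequence RRACH (R is G or A, H is A, C or T), and it is known to gather in long exons and around stop codons.

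The tissue was cortex bordering the infarct from adult male C57BL/6J mice, aged 6 to 8 weeks at surgery, with 6 mice per surgery group in the study's methods. The groups were Sham, which had the operation without ischaemia, and MCAO/R, in which a filament blocked the middle cerebral artery for 2 h before reperfusion of 0, 6 or 24 h. Each group has 2 immunoprecipitated (IP) libraries, with 1 deposited peak list each. The labels do not say whether the replicates came from separate animals or pools, so the p-values below measure only the spread between these samples. A peak is a stretch where the antibody-captured fragments exceeded the input, and each carries a score of unstated scale, which is used here only as a percentile within its list (100 is the highest score). The 8 lists held 18775 to 24078 peaks with no read counts, so their depth is unknown. The matching 8 libraries of input RNA are not analysed here, and therefore a change in m6A and a change in RNA abundance cannot be told apart, and in bulk tissue neither can fewer cells of a type and less RNA per cell. Of marker genes for the cell types of the tissue, 3 of 7 neuronal, 4 of 5 astrocytic, 2 of 5 oligodendrocytic, 4 of 5 microglial, 5 of 5 endothelial and 0 of 5 leukocyte genes had a peak in some list. A missing peak does not show that a gene is not expressed, since Snap25, Syt1, Slc17a7 and Camk2a, which define cortical neurons, had no peak in any list.

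A larger share of the axon guidance genes than of all coding genes carried m6A. A peak was found in at least 1 list for 60 of the 66 genes (90.9%), against 52.5% of all coding genes, and in all 8 lists for 29 (43.9%), against 18.8%. All coding genes include genes that the cortex does not express. The high share was not particular to these ligands and receptors. A list of 62 related genes, described below, holds intracellular partners, adhesion molecules and other guidance cues. Of these, 53 had a peak in some list and 31 in all 8. In Sham, 40 and 45 of the 66 genes had a peak. After occlusion the numbers were 44 and 50 at 0 h, 47 and 51 at 6 h, and 47 and 52 at 24 h of reperfusion. Both lists at 6 h and at 24 h thus lay above both Sham lists, and those at 0 h overlapped with Sham. The share of all coding genes with a peak was 30.6% and 32.7% in Sham, 32.8% and 36.8% at 0 h, 35.1% and 36.3% at 6 h, and 32.2% and 35.2% at 24 h. It lay above both Sham lists at 0 h and at 6 h and overlapped with Sham at 24 h. The endothelial markers with a peak numbered 2 and 3 in Sham, 2 and 5 at 0 h, 3 and 4 at 6 h, and 5 and 4 at 24 h, so that they too lay above both Sham lists at 24 h. In no other marker set did both 24 h lists lie above both Sham lists. The neuronal markers numbered 1 and 1 in Sham, 2 and 3 at 0 h, 2 and 2 at 6 h, and 2 and 0 at 24 h. The part of list length and of endothelial RNA in the numbers of the axon guidance genes was not tested. Axon guidance genes also have long mRNAs, with a median of 5919 exonic nt and 17 exons against 3140 nt and 7 exons over all coding genes, and the part of length in their marking was not tested.

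The 6 genes without a peak in any list were the receptors Unc5a, Plxna3, Epha1 and Ephb4 and the ligands Sema3b, a secreted semaphorin, and Efna4. In 7 further genes, peaks appeared in 1 or 2 lists: Plxnb1, Plxnb3, Plxnc1, Epha2, Epha8, Robo3 and Efna3. Robo3, the Robo family member known for commissural axons, had 1 peak in MCAO/R-0 h replicate 2 and 1 in MCAO/R-24 h replicate 2. Epha8 had 1 peak in Sham replicate 2 and 1 in MCAO/R-6 h replicate 1. The other 5 had a single peak each. The remaining 24 of the 60 marked genes had peaks in 3 to 7 lists. Among these, 3 genes without a Sham peak (Ntn1, Robo4 and Sema4d) were picked for mention after their values were seen. Sema3g, Sema5b, Sema6c and Slit1, described below, had no Sham peak either. Netrin 1 (Ntn1) had 1 peak in MCAO/R-0 h replicate 2 and 2 and 1 peaks at 24 h. Robo4, the Robo receptor of endothelial cells, had 1 peak in MCAO/R-6 h replicate 2 and 2 and 1 at 24 h. Sema4d, a membrane semaphorin that acts through plexins B, had a single peak in 4 MCAO/R lists. Among the families, 11 of 20 semaphorins, 4 of 9 EphA receptors, 3 of 9 plexins and both neuropilins were marked in every list, and none of the 5 ephrin-A ligands was. Plxna4 and Plxna2, with 70 and 67 peaks summed over the lists, Robo1 with 67 and Epha5 with 52 carried the most peaks.

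**Figure D1:**
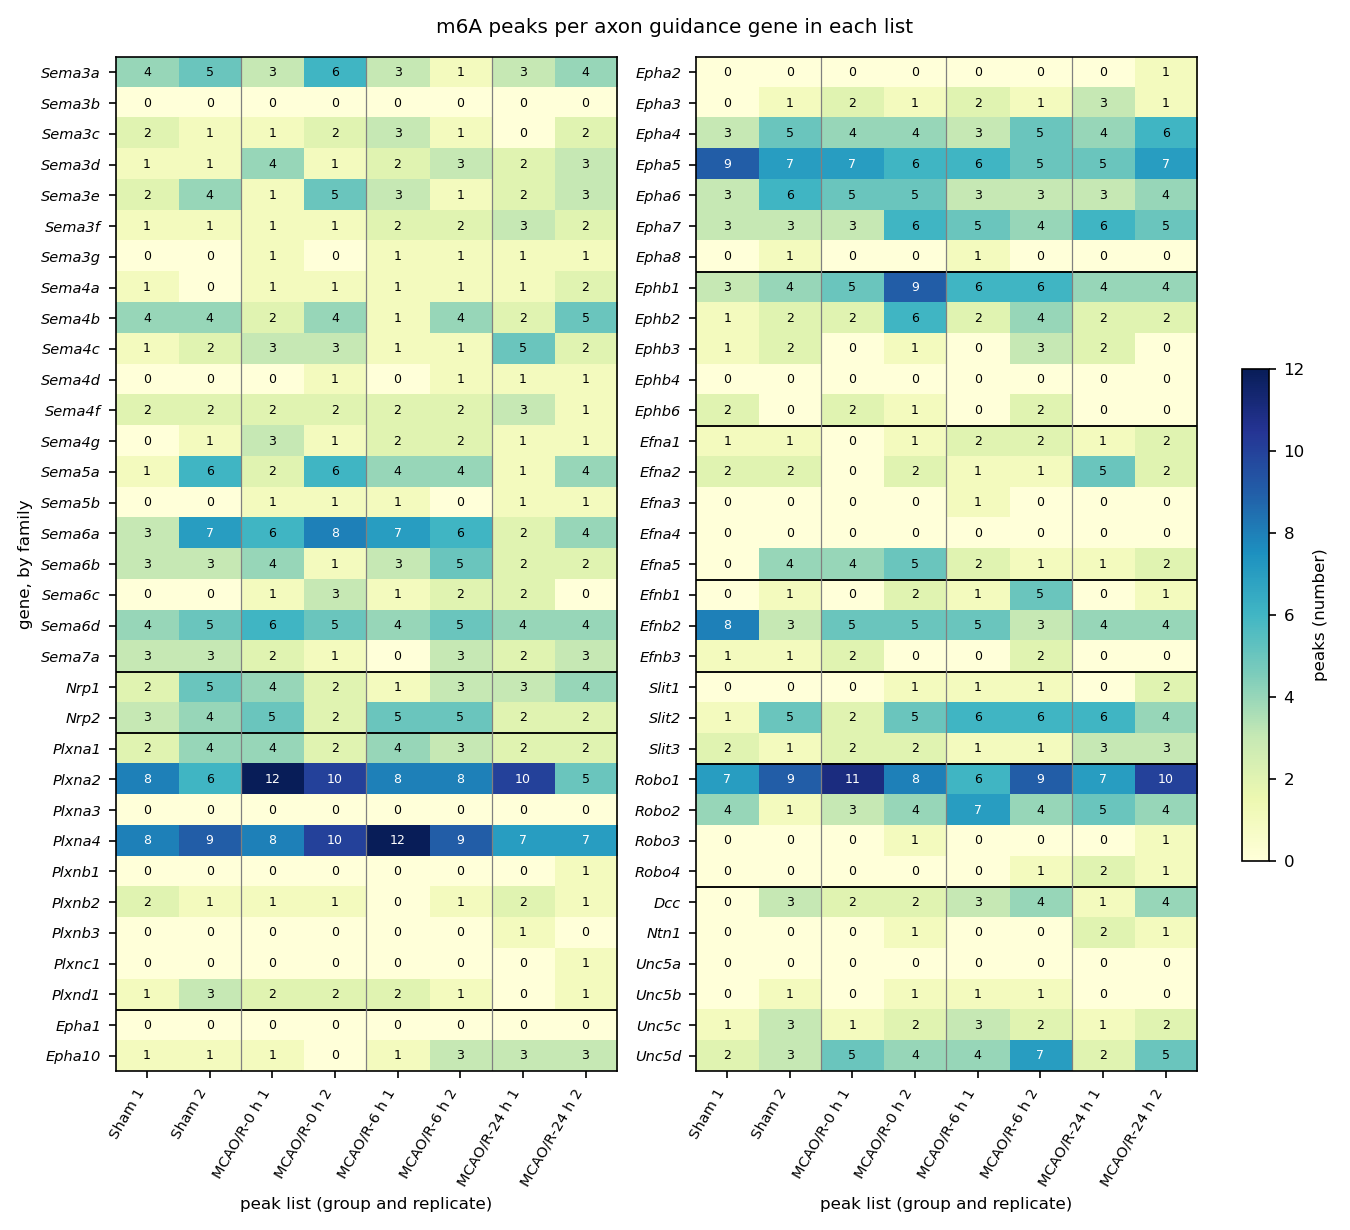
Number of m6A peaks on the exons of each of the 66 axon guidance genes (vertical axis, by family) in each of the 8 peak lists (horizontal axis), with the number written in each cell and darker cells for more peaks. Plxna2, Plxna4 and Robo1 have dark cells in all lists, with 5 to 12 peaks, whereas 6 genes are at 0 throughout.

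Where peaks of different lists shared an exonic base they were joined into regions. The 66 genes held 340 regions, of which 178 (52.4%) came from a single list and 37 (10.9%) from all 8 lists, close to the 9.72% of regions of all coding genes that all 8 lists held. These 37 regions lay in 26 genes, 15 receptors and 11 ligands. Of the 37 regions, 25 were in the last exon, 14 lay within 200 nt of the end of the coding sequence (CDS), and 13 were placed in the CDS. Of the 178 regions of a single list, 59 were in the last exon and 15 within 200 nt of the end of the CDS.

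**Figure D2:**
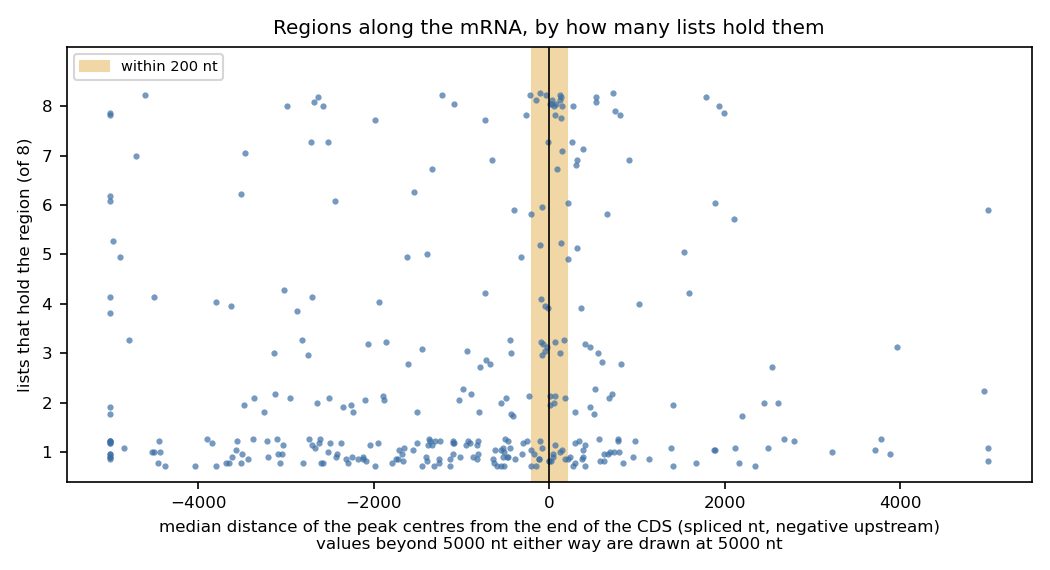
Distance of each region of an axon guidance gene from the end of the CDS (horizontal axis, spliced nt, negative upstream) against the number of lists that hold it (vertical axis); each point is 1 region and the shaded band marks 200 nt on either side. Of the 37 regions in all 8 lists, 14 lie within the band, and a further group lies over 2000 nt upstream of it.

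Over peaks instead of regions, the share of peak centres within 200 nt of the end of the CDS was 21.1% ± 3.30 (SD, n = 2) in Sham. It was 22.4% ± 0.446 at 0 h, 23.8% ± 0.339 at 6 h and 23.7% ± 4.14 at 24 h, with the same n. The mean over the 8 lists was 22.8% ± 2.34 (SD, n = 8), against 20.4% ± 0.377 for all coding genes. No group mean differed from that of Sham by more than the SD of the Sham lists. Of the peak centres in internal exons, 35.8% ± 6.81 (SD, n = 8) lay in exons over 400 nt. The share for all coding genes was higher, 52.4% ± 1.32. In the axon guidance genes it was at most 47.6% in a list, against at least 50.6% for all coding genes. The long exons described below are thus those of single genes, and the set was not rich in such peaks. Axon guidance peaks held 18.3 ± 0.331 RRACH sites per kb (SD, n = 8), searched on the transcript strand, against 14.4 per kb in the rest of the same exons, a ratio of 1.27 ± 0.0230. The ratio was above 1 in all 8 lists, from 1.23 to 1.30. For GGACT, a form of RRACH, the ratio was 1.43 ± 0.156. Among peaks of exactly 100 nt, 93 of 112 on axon guidance genes (83.0%) held an RRACH match, the same share as over all coding genes (83.0%), and 14.3% against 13.2% held GGACT.

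Among the 37 regions found in all 8 lists, the highest-scoring m6A of the pathway sat in EphA receptors. In 7 of the 9 EphA genes, exon 3 is a long internal coding exon of 661 to 676 nt, which encodes most of the ephrin-binding domain. Peaks covered it in all 8 lists in Epha5, Epha6 and Epha7, in 7 lists in Epha3, in 3 in Epha4, in 1 in Epha8 and in none in Epha2. In Epha7, whose exon 3 holds codons 55 to 278 of 998, peaks covered 528 and 550 nt of the 670 nt in Sham, 578 and 503 nt at 0 h, 478 and 528 nt at 6 h, and 503 and 578 nt at 24 h. The groups overlapped, and the peak stood at a score percentile of 99.5 to 99.8 in every list, the highest mean (99.6) of the 37 regions.

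In Epha5 the covered length of exon 3 was 350 and 375 nt in Sham, 325 and 375 nt at 0 h, 425 and 350 nt at 6 h, and 200 and 350 nt at 24 h, at a mean percentile of 97.5. In Epha6 it was 250 and 372 nt, 375 and 300 nt, 325 and 250 nt, and 225 and 300 nt in the same order, at a mean percentile of 81.8. Every group listed this mark in both genes, and the groups overlapped. The exons of Epha5, Epha6, Epha4 and Epha8 have the same length, 664 nt, and differ in marking although 63.4% to 69.9% of their bases are identical in an ungapped alignment. Epha3 exon 3 was covered over 0 and 50 nt in Sham, 100 and 275 nt at 0 h, 150 and 50 nt at 6 h, and 250 and 75 nt at 24 h, and its main region stood at percentiles of 17.6 to 64.9. Exon 3 holds 14 RRACH matches in Epha7, 13 in Epha3, 12 in Epha5, 10 in Epha6, 9 in Epha2, 8 in Epha4 and 7 in Epha8. The number of matches thus did not give the order of coverage, since Epha3 has more matches and less coverage than Epha5 and Epha6.

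The part of the Epha5 exon that all 8 lists covered lies at chr5:84479418-84479617 (GRCm39, minus strand, exon positions 134 to 333, CDS) and is shown because its 200 nt carry the mark in every library; capitals are RRACH matches, 7 in all, of which 3 are GGACT.
Epha5: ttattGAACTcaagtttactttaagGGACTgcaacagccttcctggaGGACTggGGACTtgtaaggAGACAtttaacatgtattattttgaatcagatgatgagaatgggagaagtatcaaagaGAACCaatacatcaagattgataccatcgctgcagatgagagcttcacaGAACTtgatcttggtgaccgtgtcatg

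Positions 218 to 317 of exon 3, the part that all 8 lists covered in Epha6, are shown next for 3 of the receptors, so that a marked and an unmarked paralogue can be read together. They lie at chr16:60245431-60245530 (minus strand) in Epha6, at chr4:28821216-28821315 (plus strand) in Epha7, whose exon is 6 nt longer, and at chr1:77483532-77483631 (minus strand) in Epha4, on GRCm39. All 8 lists had a peak there in Epha6 and Epha7, and no list did in Epha4. RRACH matches, in capitals, number 1 in Epha6, 4 in Epha7 and 2 in Epha4.
Epha6: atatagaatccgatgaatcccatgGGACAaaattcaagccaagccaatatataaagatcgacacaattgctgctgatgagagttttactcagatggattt
Epha7: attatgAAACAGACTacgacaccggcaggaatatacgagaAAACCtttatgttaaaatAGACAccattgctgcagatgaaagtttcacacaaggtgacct
Epha4: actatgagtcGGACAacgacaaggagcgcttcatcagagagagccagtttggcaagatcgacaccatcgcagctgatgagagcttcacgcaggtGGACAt

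**Figure D3:**
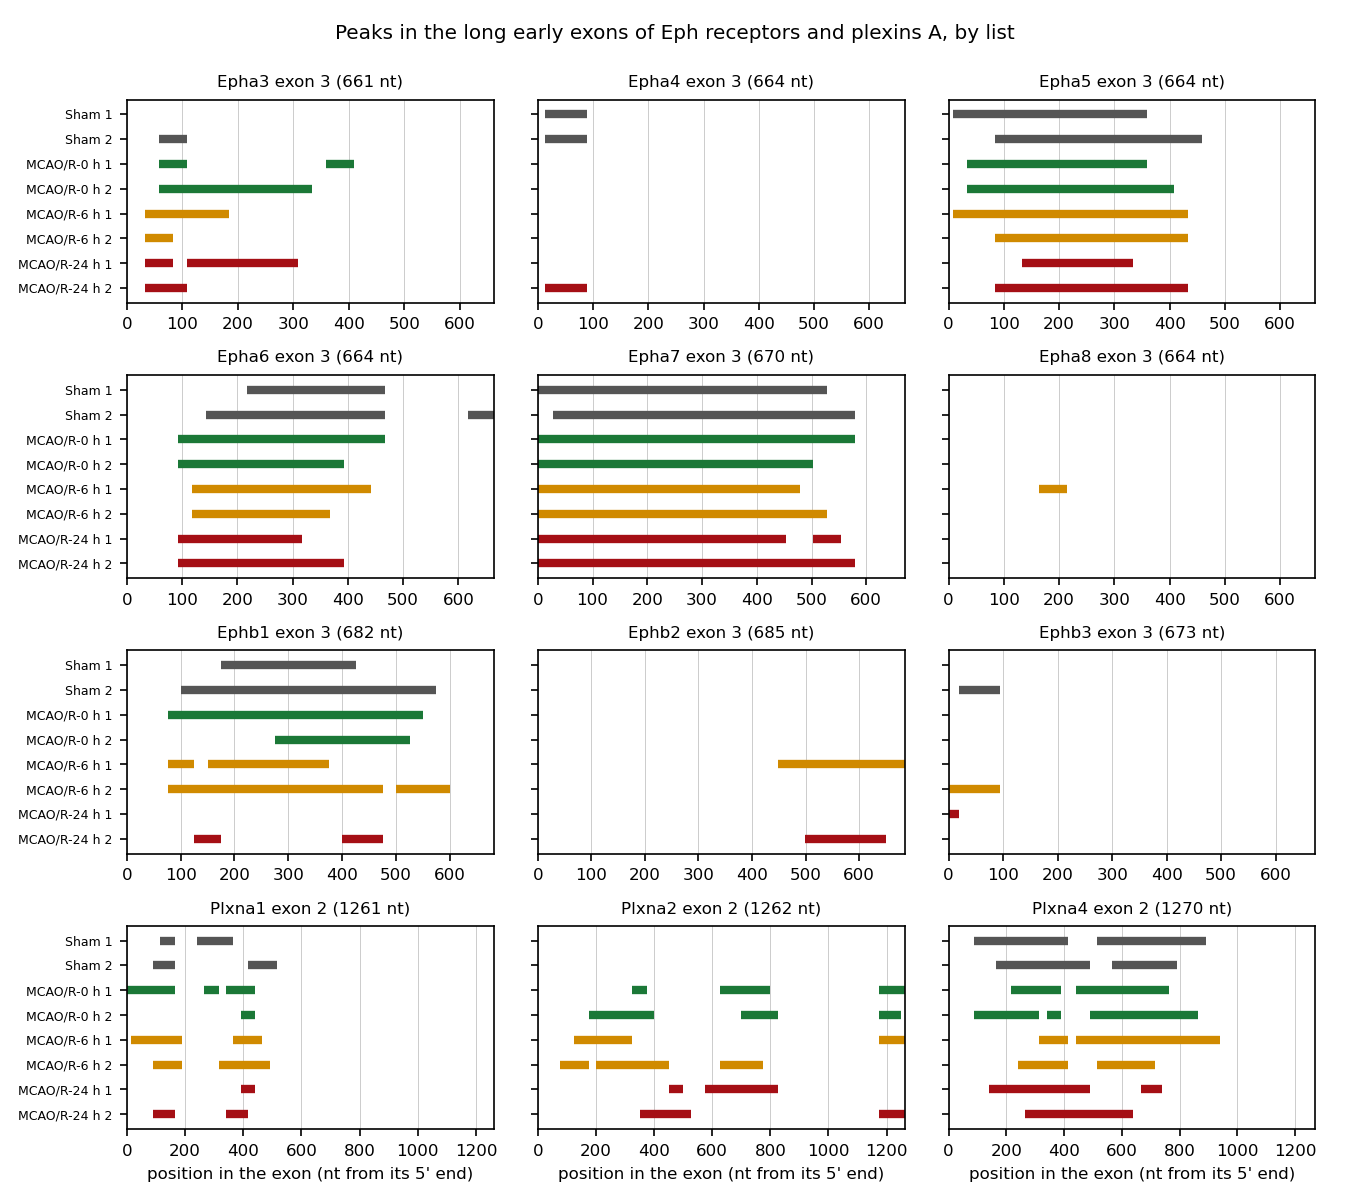
Peaks (bars) by list (vertical axis, coloured by group) along the long early exon of 9 Eph receptors and 3 plexins A (horizontal axis, nt from the 5' end of the exon). Epha5, Epha6 and Epha7 are covered in all 8 lists, Epha4 has a 75-nt peak in 3 lists, and Plxna2 has no peak in the Sham lists.

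The mark of Epha4 exon 3 differed in place and was not listed in every group, a difference that was not tested. A 75-nt peak near the start of the exon was found in both Sham lists, at percentiles of 95.6 and 93.8, and in MCAO/R-24 h replicate 2 at 91.8. It was absent from both lists at 0 h, both lists at 6 h and from MCAO/R-24 h replicate 1. A peak of the same 75 nt and a high rank was thus listed or missing in full, with no lower-ranked remnant. It lies at chr1:77483761-77483835 (GRCm39, minus strand, exon positions 14 to 88, CDS) and holds 2 RRACH matches, in capitals.
Epha4: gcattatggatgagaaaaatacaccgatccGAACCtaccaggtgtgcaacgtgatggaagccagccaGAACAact

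Epha4 and Epha7 were also the 2 genes of the pathway whose total peak-covered length differed most among the groups relative to the replicates. Epha7, a receptor for ephrin-A ligands, was covered over 1100 and 1150 nt in Sham, 1275 and 1259 nt at 0 h, 1402 and 1327 nt at 6 h, and 1393 and 1543 nt at 24 h. All 6 MCAO/R lists lay above both Sham lists. Epha4, which binds ephrins of both classes, was covered over 1500 and 1750 nt in Sham, 1450 and 1325 nt at 0 h, 1275 and 1250 nt at 6 h, and 1300 and 1400 nt at 24 h. Here all 6 MCAO/R lists lay below both Sham lists. Sema5b, a membrane semaphorin, came next, with 0 and 0 nt in Sham, 100 and 225 nt at 0 h, 50 and 0 nt at 6 h, and 50 and 75 nt at 24 h.

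The 4 groups were compared by an exact permutation test over every way to divide the 8 lists into pairs. The test counts only divisions with at least the observed difference (one-sided), and its smallest possible p is 0.00952. It gave p = 0.0190 for Epha7, 0.0381 for Epha4 and 0.0571 for Sema5b (exact permutation test, n = 2 per group), and the Benjamini-Hochberg adjusted p over 11436 genes was 0.944 for each. Unadjusted p was under 0.05 for 2 of the 60 marked genes (3.33%) against 3.27% of all genes tested, so the count does not stand out. With so few divisions a lone gene could not pass the adjusted threshold, and 0 of 11436 genes did.

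The EphB receptors shared the long exon 3 in 3 of 5 genes. Ephb1, which binds ephrin-B ligands, was covered there over 250 and 475 nt in Sham, 475 and 250 nt at 0 h, 275 and 500 nt at 6 h, and 0 and 125 nt at 24 h. The last group lay below the other 6 lists. Peaks on Ephb3 exon 3 were found in 3 lists (19 to 94 nt) and on Ephb2 exon 3 in 2 lists (150 and 236 nt). In Ephb6 the long exon is exon 5 (763 nt, codons 57 to 311 of 1014). It was covered over 75 nt in Sham replicate 1 and 125 nt in MCAO/R-6 h replicate 2 only. Both Ephb1 and Ephb2 had a region of all 8 lists in the last exon, at mean percentiles of 97.0 and 68.7.

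A second long-exon pattern was seen in plexins A and in Plxnb2. Exon 2 of Plxna1, Plxna2 and Plxna4 contains the start codon and 395 or 396 codons in 1261 to 1270 nt, the beginning of the semaphorin-binding part of these receptors. In Plxna4 peaks covered 700 and 550 nt of it in Sham, 500 and 650 nt at 0 h, 600 and 375 nt at 6 h, and 425 and 375 nt at 24 h. In Plxna1 the lengths were 175 and 175 nt, 315 and 50 nt, 275 and 275 nt, and 50 and 150 nt in the same order. Groups overlapped in both genes. In Plxna2 the lengths were 0 and 0 nt in Sham, 312 and 425 nt at 0 h, 287 and 500 nt at 6 h, and 300 and 262 nt at 24 h. Exon 2 of Plxna2 was bare in both Sham lists and marked in all 6 MCAO/R lists, while the gene as a whole had 8 and 6 peaks in Sham and 5 to 12 in MCAO/R. Plxna3, whose exon 2 is 624 nt long, had no peak. Plexins B also have a long exon with the start codon. That of Plxnb2 (exon 4, 1087 nt) was covered over 100 and 200 nt in Sham and 325 and 325 nt at 0 h. It was covered over 0 and 175 nt at 6 h and 250 and 375 nt at 24 h. That of Plxnb1 (exon 3, 1113 nt) had a peak in 1 list and that of Plxnb3 (exon 2, 1061 nt) in 0.

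One joined region of Plxna2 exon 2 was the single region of the pathway in all 6 MCAO/R lists and neither Sham list. It makes 0.294% of the 340 regions, near the 0.265% of the regions of all coding genes with that pattern. With the higher-scoring 50% of each list no region had the pattern, and the gain of this region at 0 h no longer held. It covered 50 and 225 nt at 0 h, 200 and 350 nt at 6 h, and 50 and 175 nt at 24 h, at percentiles from 44.5 to 81.2. The peaks of the 6 lists were not stacked on the same bases: at most 4 lists shared a base, over 25 nt. The stretch that at least 3 lists covered is shown because it holds most of the bases that several lists share. It lies at chr1:194326194-194326393 (GRCm39, plus strand, exon positions 201 to 400, CDS), 200 nt with 4 RRACH matches in capitals.
Plxna2: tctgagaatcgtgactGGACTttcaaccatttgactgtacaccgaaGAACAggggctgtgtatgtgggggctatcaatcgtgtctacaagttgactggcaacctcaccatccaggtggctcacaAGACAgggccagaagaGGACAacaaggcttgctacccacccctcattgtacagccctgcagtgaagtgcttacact

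For comparison, the 50 nt of Plxna4 exon 2 that all 8 lists covered lie at chr6:32494311-32494360 (GRCm39, minus strand, exon positions 340 to 389, CDS) and hold 1 RRACH match.
Plxna4: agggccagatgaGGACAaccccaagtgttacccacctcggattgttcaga

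Regions were called gained at a reperfusion time when both lists of that time and neither Sham list held them, and lost in the reverse case. In axon guidance genes 11 regions were gained and 3 lost at 0 h, 11 gained and 4 lost at 6 h, and 11 gained and 1 lost at 24 h. The gained share was 3.24% of the 340 regions at each time, against 2.61%, 3.44% and 2.5% of the regions of all coding genes at 0, 6 and 24 h. The lost shares were 0.882%, 1.18% and 0.294%, against 1.34%, 1.46% and 1.95%. The gained shares stood near the background, and the lost shares rest on 1 to 4 regions, with 2 lost at 24 h in place of 1 under the higher-scoring 50% of each list, equal list lengths, or joining at 50 shared bases. With 2 lists against 2, no comparison can give an exact permutation p under 0.333, so no call was tested. The calls need 2 lists per group: without 1 list of the reperfusion time the gained counts were 39 to 56, and without 1 Sham list the lost counts were 23 to 48. No region was in both Sham lists and in none of the MCAO/R lists, which 0.375% of all regions were. The 3 comparisons share the Sham lists, so a peak that both Sham lists lack can count as gained at several times.

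The gained regions were 25 different regions of 19 genes, 13 in the CDS, 10 in the 3' UTR and 2 in the 5' UTR. The 4 genes Sema3g, Sema5b, Sema6c and Slit1 had no Sham peak elsewhere either. Calls were checked under 5 other settings: the higher-scoring 50% of each list, lists cut to equal length by score, each peak given to its best gene, the exons of all transcripts, and joining at 50 shared bases. All 5 kept 3 of the 11 gained calls at 0 h, 4 of 11 at 6 h and 4 of 11 at 24 h, and 2 of 3, 2 of 4 and 1 of 1 lost calls. Each of the other calls was lost with the higher-scoring 50% of each list.

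**Figure D4:**
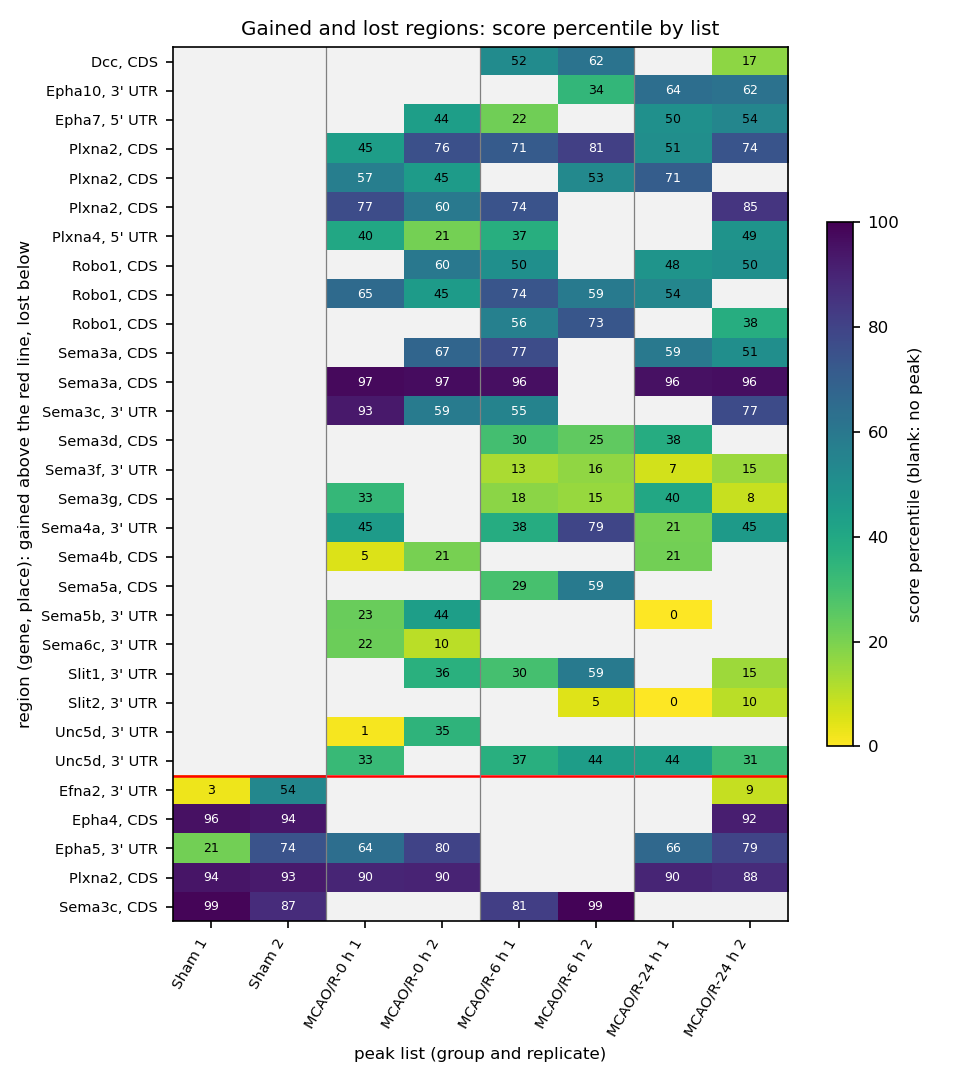
Score percentile within the list (colour and number, 100 is the highest) of each region gained or lost at any reperfusion time (vertical axis, gene and place on the mRNA) in the 8 lists (horizontal axis); blank cells have no peak. Among the 25 gained regions above the red line, the second Sema3a region stands at 96 to 97 in 5 lists, while those of Slit2, Sema3f and Sema4b stay below 22.

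Among the ligands, the highest-ranking gained region was in Sema3a, the best-known repellent of the secreted semaphorins. Its peak in the last coding exon was absent from both Sham lists, stood at percentiles of 97.4 and 96.7 at 0 h, at 95.9 in MCAO/R-6 h replicate 1, and at 95.6 and 96.3 at 24 h. MCAO/R-6 h replicate 2 lacked it. The peak covered 250 to 400 nt, and the closest Sham peak of the gene lay 100 nt away along the exons. A neighbouring region in the 3' UTR of the same exon was in 7 lists, at a mean percentile of 98.0. That neighbour stood at 97.9 and 99.0 in Sham, and MCAO/R-6 h replicate 2 lacked it too. The gained call held at 0 h and at 24 h under all 5 settings. The 250 nt that all 5 lists shared lie at chr5:13649141-13649390 (GRCm39, plus strand, exon 17 of 17, CDS) and carry 7 RRACH matches, in capitals.
Sema3a: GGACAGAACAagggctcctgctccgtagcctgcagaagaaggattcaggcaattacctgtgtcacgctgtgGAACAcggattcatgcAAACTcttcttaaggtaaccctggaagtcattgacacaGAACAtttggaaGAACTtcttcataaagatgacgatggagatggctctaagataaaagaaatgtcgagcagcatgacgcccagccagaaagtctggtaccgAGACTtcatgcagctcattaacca

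A second Sema3a region, in exon 14, was gained at 24 h, at percentiles of 59.4 and 50.8, and was also found in MCAO/R-0 h replicate 2 and MCAO/R-6 h replicate 1. A Sham peak lay 25 nt from it. Sema3c, a secreted semaphorin that acts on neurons and on the vasculature, had a lost and a gained region along its last exon. Around the end of its CDS a region was listed at percentiles of 98.7 and 87.4 in Sham and 81.3 and 99.1 at 6 h, and was in no list at 0 h or 24 h, so that it was lost at both times. A region 1595 nt downstream of the end of the CDS was missing in Sham, stood at 93.2 and 58.5 at 0 h, and was in 1 list each at 6 h (55.4) and 24 h (77.0).

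The other gained semaphorin regions ranked lower than the Sema3a region of the last exon. Sema3g, which is known from blood vessels, had a single region in the gene, absent from Sham, at 33.4 in MCAO/R-0 h replicate 1, 17.5 and 15.5 at 6 h, and 40.1 and 8.40 at 24 h. Sema4a, a membrane semaphorin that immune cells also use, gained a 3' UTR region at 6 h (38.1 and 79.2) and at 24 h (20.9 and 45.3). A Sema3f 3' UTR region gained at the same times stood at 6.70 to 16.5. Sema3d gained a CDS region at 6 h at 30.0 and 24.6, and Sema5a another at 29.0 and 59.2. At 0 h the gained regions of Sema4b, Sema6c and Sema5b stood between 5.33 and 44.0. All of these calls had a peak in the lower 50% of a list, and those of Sema3f, Sema3g, Sema4b and Sema6c no longer held when the lists were cut to equal length by score.

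Slit1 and Slit2, which bind Robo receptors, gained 1 region each. That of Slit1 was found at 29.6 and 59.4 at 6 h, in MCAO/R-0 h replicate 2 and in MCAO/R-24 h replicate 2, and that of Slit2, at 24 h, at 0.102 and 10.5. The last is among the weakest peaks of its list. Among the ephrins, Efna2 lost a 3' UTR region at 0 h and at 6 h, which had stood at 2.68 and 53.7 in Sham. Ephrin-B2 (Efnb2) held 3 regions in all 8 lists, the most of any ligand, in its first exon, in exon 2 and around the end of its CDS, at mean percentiles of 54.9, 90.4 and 92.7.

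Among the receptors, Robo1 gained 3 CDS regions. The region in exon 23 was absent from Sham, stood at 65.3 and 45.2 at 0 h, at 73.7 and 59.2 at 6 h and at 54.0 in MCAO/R-24 h replicate 1. The region in exon 25 was gained at 6 h (56.4 and 73.3) and that in exon 13 at 24 h (48.2 and 50.1). Robo1 nevertheless carried 7 and 9 peaks in Sham and 6 to 11 in the MCAO/R lists, so the groups overlapped in the number of peaks on the whole gene. Plxna2 gained 2 more regions in exon 2 at 0 h, at percentiles of 57.3 and 45.0 and of 76.8 and 59.5.

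Plxna2 also lost a high-ranking region at 6 h. Around the junction of exons 31 and 32, close to the end of the CDS, peaks stood at 94.2 and 92.9 in Sham, 89.5 and 90.1 at 0 h and 89.6 and 87.8 at 24 h, and were missing from both lists at 6 h. A Sham peak of the neighbouring region lay 50 nt away. The loss held under all 5 settings. The 75 nt that the 6 lists shared lie at chr1:194494379-194494453 (GRCm39, plus strand, exon 32, CDS) and hold 1 RRACH match.
Plxna2: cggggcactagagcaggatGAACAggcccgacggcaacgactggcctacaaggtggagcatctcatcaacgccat

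Epha5 lost a 3' UTR region at 6 h as well, which stood at 21.3 and 74.5 in Sham, 63.8 and 79.8 at 0 h and 66.1 and 79.4 at 24 h. In both genes the 2 lists of 6 h were the ones of the 8 without the region. Epha7 gained a 5' UTR region at 24 h (49.9 and 54.1), 43 nt from a Sham peak. Epha10 gained a 3' UTR region at 24 h (64.0 and 62.3), placed on a transcript of only 3 exons. Plxna4 gained a 5' UTR region at 0 h (40.2 and 21.1). Of the netrin receptors, Dcc gained a CDS region at 6 h (51.6 and 62.0), and Unc5d gained a 3' UTR region at 6 h and 24 h (31.1 to 44.2) and another at 0 h (1.32 and 35.0). Of these, the Epha10 and Dcc calls held under all 5 settings.

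The regions found in all 8 lists allow the rank of the score to be compared between groups. After Epha7 exon 3, the highest mean percentile was that of the Epha4 3' UTR, at 99.9 and 99.9 in Sham, 99.6 and 98.4 at 0 h, 99.4 and 98.4 at 6 h, and 98.9 and 98.9 at 24 h. Next came an Epha5 region in an exon outside the transcript with the longest CDS (mean 98.0, from 95.3 to 99.8), Epha5 exon 3, and the 3' UTR of Epha6 (mean 97.4). The last exon of Plxna2 held 2 such regions (means 97.3 and 95.0). The last exon of Ephb1 followed, with 99.3 and 99.6 in Sham, 98.3 and 92.2 at 0 h, 98.0 and 96.9 at 6 h, and 95.7 and 95.9 at 24 h. All MCAO/R lists lay below both Sham lists in the Ephb1 and the Epha4 region.

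Further high-ranking regions were those of Sema6d, a membrane semaphorin (mean 95.8), of the netrin repulsion receptor Unc5c (95.2), of the semaphorin co-receptor Nrp1 (93.5), and of Efnb2, Plxna4 and Sema6a (92.7, 89.8 and 88.0). In each of these 6 the range of the MCAO/R lists overlapped with that of the Sham lists. The region of lowest rank was in the 3' UTR of Sema3f, with 3.84 and 18.1 in Sham, 28.2 and 47.0 at 0 h, 0.426 and 3.70 at 6 h, and 12.5 and 7.03 at 24 h. Its 0 h lists lay above, and its 6 h lists below, both Sham lists. It directly adjoins the Sema3f region gained at 6 h and 24 h.

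**Figure D5:**
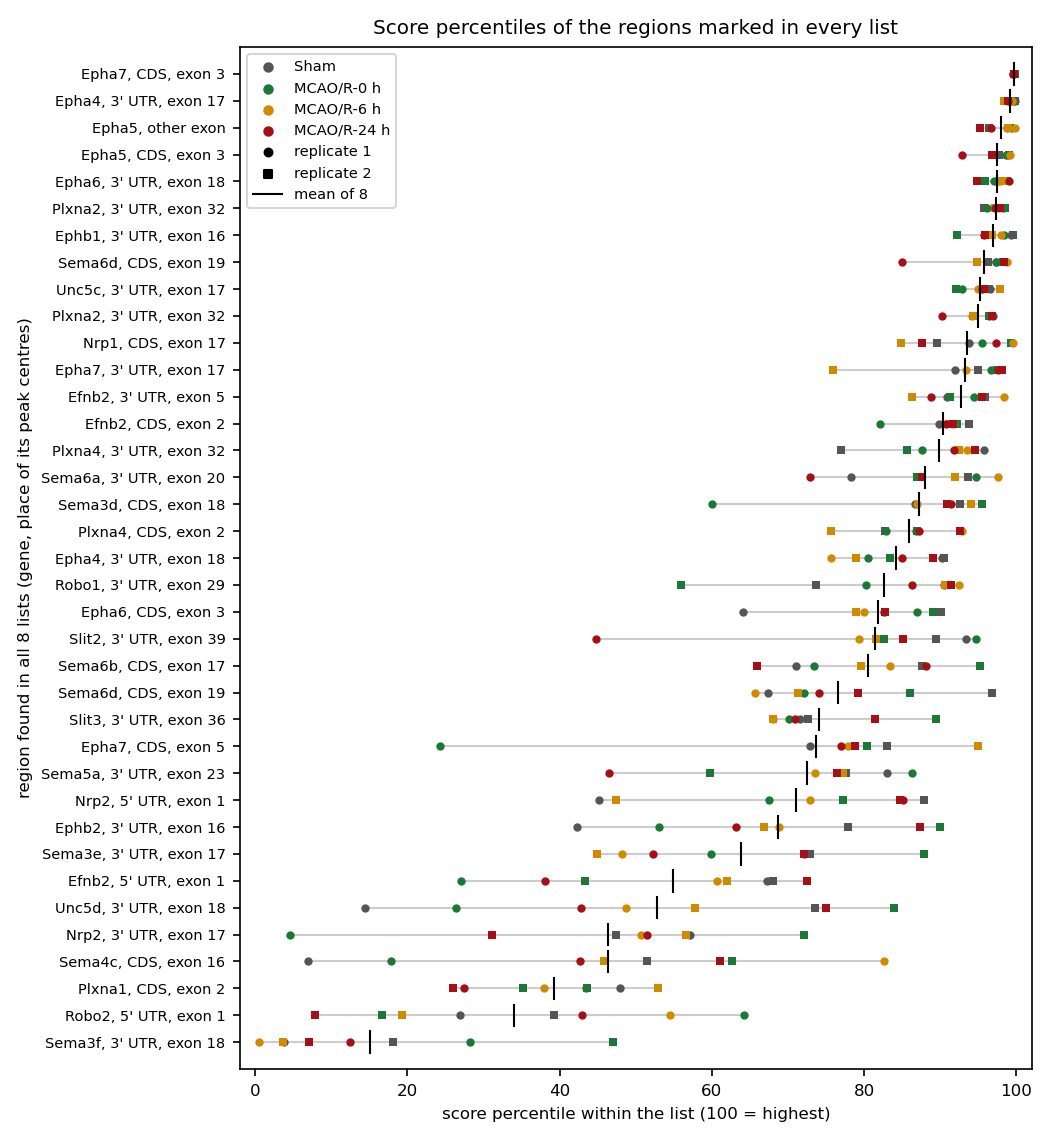
Score percentile within the list (horizontal axis) of the 37 regions found in all 8 lists (vertical axis, ordered by their mean); points are lists, coloured by group and shaped by replicate, and the vertical tick is the mean of the 8. EphA regions fill the first 5 places, and the points of a region spread more widely further down.

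Normal scores of these ranks were fitted with limma over the 4508 regions of all coding genes found in all 8 lists. No region passed an adjusted p of 0.05 (0 of 4508, 0%, at each time), axon guidance regions included. At an unadjusted p under 0.05, 3 of the 37 axon guidance regions differed from Sham at 0 h, 1 at 6 h and 2 at 24 h, against 6.57%, 9.25% and 7.85% of all regions. The last-exon region of Ephb1 differed from Sham by -0.77 ± 0.30 (SE) normal-score units at 0 h and by -0.81 ± 0.30 at 24 h (limma, adjusted p = 0.709 and 0.595). The Epha4 3' UTR region differed by -0.69 ± 0.28 at 6 h and -0.73 ± 0.28 at 24 h (adjusted p = 0.506 and 0.609). For Sema3f the difference was 1.01 ± 0.41 at 0 h and -0.87 ± 0.41 at 6 h (adjusted p = 0.709 and 0.572). The Sema3f difference at 6 h is not among those counted (limma, unadjusted p = 0.0638). The first-exon region of Efnb2 differed by -0.85 ± 0.34 at 0 h (adjusted p = 0.709). It stood at percentiles of 27.0 and 43.4 at 0 h, against 67.3 and 68.0 in Sham. The score rank of these marks was thus not distinguishable from Sham with 2 lists per group.

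The list of 62 related genes held intracellular partners of the guidance receptors, adhesion molecules and other guidance cues. It is not a downstream set alone, since it includes cues such as Ntn4 and Rgma and receptors such as Neo1 and Rtn4r. Of these, 53 had a peak in some list, 31 in all 8, and 39 to 44 in each list. Sham lists marked 41 and 44 genes and the 24 h lists 41 and 39, so the list did not show the higher numbers of the 66 genes at 24 h. It held 289 regions, of which 3, 8 and 3 were gained at 0, 6 and 24 h (1.04%, 2.77% and 1.04%), below the shares of 2.61%, 3.44% and 2.5% over all coding genes, without a test. The lost regions numbered 5, 5 and 4 (1.73%, 1.73% and 1.38%, against 1.34%, 1.46% and 1.95%). The GTPase genes Cdc42 and Rhoa and the kinase genes Pak1 and Limk1 had no peak, and neither did Dpysl2, Mical1, Ngef, Draxin and Mag. Their relatives differed: Pak2, Pak3 and Limk2 were marked in every list and the GTPase gene Rac1 in 3. Also marked in every list were the kinases Rock1 and Rock2, the adaptor Nck2 and the netrin receptor neogenin (Neo1). The Slit-Robo GTPase-activating genes Srgap1 to Srgap3 were too.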

How the data were processed

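Peaks of m6A were taken from 8 IP libraries, 2 per group. Replicate lists were kept apart, and samples were grouped by the labels. Trim Galore 0.6.7 was used by the authors on the raw reads and HISAT2 2.2.1 for mapping to GRCm39. Reads mapped to no place or to several were dropped, and exomePeak2 (p-value cutoff 0.05, log2 fold change cutoff 0.5, version not given in the sources used here) made the lists. The paper counts fewer confident peaks per sample than these lists hold, so a listed peak need not be one of those. RNA was cut to about 100 nt in the study's methods and about 200 nt in the labels, and 10% went to the input libraries, not analysed here. The deposited value of a peak is a score of unstated scale. The lists hold no counts, so depth is unknown and no counting interval is given. Dropping reads that map to several places can hide peaks in sequence that paralogues share.

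Each deposited line is 1 block across introns. Its exonic part was rebuilt on the strand from the exons of basic protein-coding transcripts of GENCODE M39, without readthrough transcripts. Positions used the transcript with the longest CDS. Peaks of a gene sharing 1 exonic base formed a region. Covered length was compared by exact permutation and score ranks by limma 3.58.1 (R 4.3.3) with Benjamini-Hochberg adjustment over all coding genes or regions, and both were tested on simulated data. Python 3.11.15, numpy 2.4.6, pandas 2.3.3 and matplotlib 3.10.9 were used. Sequences come from the GRCm39 genome. Named were genes with a gained or lost region, the 12 with the highest mean percentile in all 8 lists, the 3 with the smallest p, and those marked in 0 to 2 lists. The genes and lists were chosen with earlier results of these data known. Same-numbered replicates did not deviate together (correlations 0.0125 to 0.0486 over 11436 genes), so the numbers were not used to pair lists. Alternatives were the higher-scoring 50% of each list, equal list lengths, other exon sets, gene assignment, joining, windows and motifs, and leaving out each list.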

Additional observations from a re-analysis of the deposited data

Results flagged for a closer look

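The score percentile of the Sema3f 3' UTR region lay on opposite sides of Sham at 2 reperfusion times, in lists of unequal length (18775 to 24078 peaks), and a difference in percentile is not shown to be a change in m6A. Both lists at 0 h lay above both Sham lists, by 26.6 percentile points on the mean, and both lists at 6 h lay below them, by a mean difference of -8.91, so that the 2 effects differed by 35.5 points. The difference between the effects was not tested, and neither effect passed the adjusted threshold. The flagged Sema3f region directly adjoins the Sema3f region gained at 6 h and 24 h, which stood at 12.7 and 16.5 at 6 h. A shift of peak borders between the 2 regions was not tested. In Unc5c, the covered exonic length was 525 and 625 nt in Sham, 350 and 500 nt at 0 h, 675 and 650 nt at 6 h, and 450 and 650 nt at 24 h. It was higher than Sham by 87.5 nt at 6 h and lower at 0 h, a mean difference of -150 nt, so that the 2 effects differed by 237.5 nt, which was not tested either. With 2 lists per group no list could be examined for standing apart from its group.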

How the results depend on the processing

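Of 86 values under other settings, leaving out a list aside, 71 stayed within 1.5 times or 1 SD of the reported value and 0 reversed. The 71 include every 0 of the covered-length test, which a lone gene could not pass, and of the rank fit. Counts and shares cannot change sign, so a reversal could not be seen in them. With the higher-scoring 50% of each list, 16 genes had a region in all 8 lists, 136 regions remained, 4, 6 and 6 were gained at 0, 6 and 24 h, 2 were lost at 24 h and 0 were in all MCAO/R lists without Sham, and the share near the stop codon was 27.6%. With equal list lengths (18775 peaks), 5 regions were lost at 0 h and 2 at 24 h, and 1 was in both Sham lists alone. Joining at 50 shared bases gave 2 lost at 24 h. The stop codon share was 12.3% within 100 nt and 35.1% within 400 nt, and the GGAC ratio was 1.16. The covered length of Sema5b, 83.3 nt above Sham, came to a difference of 0 with the higher-scoring 50%.

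Leaving out 1 list makes a gained or lost call rest on a single list of that group, and the counts moved accordingly: gained 11 to 54 at 0 h, 11 to 56 at 6 h and 10 to 56 at 24 h, lost 3 to 44, 4 to 45 and 1 to 48. Without Sham replicate 1, 17 regions were gained at 0 h and 44, 45 and 48 lost. Without Sham replicate 2, 22, 21 and 17 were gained and 24, 23 and 26 lost. Without replicate 1 or 2 of the time itself, 54 and 45 were gained at 0 h, 49 and 56 at 6 h, and 56 and 39 at 24 h, and 5 and 9, 7 and 13, and 4 and 8 were lost. Without MCAO/R-6 h replicate 1, 2 were lost at 24 h. Regions in all MCAO/R lists without Sham numbered 1 to 4 (3 and 4 without Sham replicate 1 or 2, 4 without MCAO/R-0 h replicate 2, 2 without MCAO/R-6 h replicate 2). Those in both Sham lists alone numbered 0 to 27 (27 and 17 without Sham replicate 1 or 2, 2 without MCAO/R-24 h replicate 2). Genes with a peak per list (46.3 to 48.0), genes with a region in all lists used (26 to 29), regions (318 to 331), the stop codon share (22.2% to 23.3%) and the RRACH ratio (1.27 to 1.28) moved by under 1.5 times. The covered-length differences from Sham ranged from 206 to 267 nt for Epha7 and from -417 to -167 nt for Epha4.

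With the replicate block, which permutes within replicate numbers (24 divisions, smallest p 0.0417), 0 genes of the pathway passed in covered length, 0 also unadjusted, and 0 regions passed in score rank, as without it. The lists hold no depth, so a missing peak cannot be told from low coverage.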
